A study of Mus musculus with 2 samples.

Results

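The 10 genes described here are Fos, Fosb, Jun, Junb, Egr1, Atf3, Ier2, Hspa1a, Hspa1b and Dnajb1, taken by name from the 21041 genes of the matrix. They comprise 7 immediate early genes and 3 heat shock genes, and they serve as a measure of the stress that cells go through when a tissue is taken apart. All 10 were found in the data under these symbols. The cells came from distal colon adenomas of Apcmin;LSL-mTERT mice, 25 weeks old, with 1 library labelled G4+T and 1 labelled G0+T. Apcmin is a truncating allele of Apc, a negative regulator of Wnt signalling, and LSL-mTERT is a mouse Tert allele behind a removable stop cassette. Both libraries carry both alleles. The labels name no Cre driver, and they do not say how many mice or adenomas went into a library.

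The authors' annotation gave each of the 14097 cells a CIN class, a cell type and, for epithelial cells, a subtype. All 6189 cells of 1 barcode suffix were CIN_high and all 7908 cells of the other were CIN_low, so class and library were the same division of the cells. The cell names and the sample titles conflict on which suffix belongs to which title, and no cell was therefore assigned to G4+T or G0+T. Values are given for the CIN_high library and the CIN_low library. Each class had a single library, so nothing could be tested or checked against replicates. Differences of class, mice, tissue pieces, digestion and library preparation cannot be told apart. Counting intervals, at 95%, cover counting error only, and PCR and capture error lie outside them.

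Immediate early genes are transcribed within minutes of a stimulus, from promoters already bound by factors such as SRF and CREB, without new protein synthesis. Fos and Jun family proteins pair to form AP-1, which binds TGA-containing sites. Heat shock genes of the HSP70 and HSP40 families are driven by the factor HSF1 when proteins unfold, and their products refold them. Both groups are known to be switched on during warm enzymatic digestion of tissue. Per the labels, the adenomas were minced and digested with collagenase and then trypsin in a warm rotating oven. The collagenase time is given as a range, and its length for each library is not given in the sources used here.

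Promoters of 8 of the 10 members were matched by symbol in a RefSeq table on GRCm38.p6. Each was a window from 250 bases before to 50 after the start used in that table. Those of Egr1 and Ier2 were not used. The windows of Fos and Junb are shown because the levels of these AP-1 genes over cell types went different ways, and those of Hspa1a and Hspa1b because the 2 genes moved together. Capitals mark the cAMP response element core TGACG and the TATA box TATAAA in Fos and Junb, and the heat shock element GAANNTTC in the HSP70 pair.
Fos, chr12:85473640-85473939, plus strand: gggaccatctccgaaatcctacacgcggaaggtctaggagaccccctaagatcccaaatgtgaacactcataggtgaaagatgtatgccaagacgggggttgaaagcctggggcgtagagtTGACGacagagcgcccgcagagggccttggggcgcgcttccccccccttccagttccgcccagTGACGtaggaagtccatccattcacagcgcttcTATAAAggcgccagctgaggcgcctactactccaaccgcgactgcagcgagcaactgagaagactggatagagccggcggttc
Junb, chr8:84978699-84978998, minus strand: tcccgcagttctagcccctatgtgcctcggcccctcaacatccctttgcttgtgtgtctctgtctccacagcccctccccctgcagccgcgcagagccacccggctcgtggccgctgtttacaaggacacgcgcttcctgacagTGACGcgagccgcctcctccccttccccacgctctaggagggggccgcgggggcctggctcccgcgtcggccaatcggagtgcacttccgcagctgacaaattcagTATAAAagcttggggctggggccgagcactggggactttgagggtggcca
Hspa1a, chr17:34972107-34972406, minus strand: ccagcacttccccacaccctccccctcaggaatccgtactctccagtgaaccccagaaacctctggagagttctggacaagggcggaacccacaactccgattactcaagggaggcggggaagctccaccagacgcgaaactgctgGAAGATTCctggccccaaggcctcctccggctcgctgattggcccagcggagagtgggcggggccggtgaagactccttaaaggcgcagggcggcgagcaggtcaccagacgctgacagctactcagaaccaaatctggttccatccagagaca
Hspa1b, chr17:34959189-34959488, minus strand: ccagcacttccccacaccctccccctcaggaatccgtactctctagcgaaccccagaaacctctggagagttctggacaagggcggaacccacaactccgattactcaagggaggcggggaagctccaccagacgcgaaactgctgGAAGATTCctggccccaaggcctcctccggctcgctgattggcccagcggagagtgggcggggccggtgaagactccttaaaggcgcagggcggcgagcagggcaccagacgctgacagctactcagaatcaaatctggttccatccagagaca

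Positions are counted from the RefSeq start of each window, set to 0. GENCODE starts can lie elsewhere, as for Junb (84978718) and Atf3 (191218039), so the positions hold only for the RefSeq starts. TGACG lay at -129 and -66 and TATAAA at -33 in the Fos window. In the Junb window TGACG lay at -106 and TATAAA at 0. Both HSP70 windows held GAAGATTC at -104. Searched on both strands, TGACG occurred in 20.8% of the 32851 promoter windows of the table, TATAAA in 13.6% and GAANNTTC in 7.86%. Among the other members, GAANNTTC matched at -128 in Jun, and TGACG at -7 in Atf3, at -60 in Fosb and at -11 in 1 of the 2 windows of Dnajb1. The full palindrome TGACGTCA, which contains TGACG, was found in none of the 9 windows of members and in 1.79% of all windows. These matches describe letters in a window and not binding.

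The Hspa1a and Hspa1b windows were 98.7% identical. Their 4 differences were C44T, T47C, T249G and C276T, with the Hspa1a base first and positions counted from 1 at the 5′ end of the window. Their longest transcripts were 84.3% identical as a whole, but 47.4% over the last 200 bases. How the authors' counting treated reads shared by the pair is not given in the sources used here, so the split between Hspa1a and Hspa1b is uncertain and their sum is also given. In the GENCODE annotation of mm10, Hspa1a lies on chromosome 17 from 34969190 to 34972156 and Hspa1b from 34956436 to 34959238. Fos lies on chromosome 12 from 85473890 to 85477273, and Egr1 on chromosome 18 from 34859823 to 34864984. Jun, Junb, Atf3 and Hspa1a each overlap a gene on the other strand, by 689, 351, 108 and 2225 bases. The partner of Atf3 is not among the genes of the matrix. The sources used here name Cell Ranger for counting but do not state how strand was treated. Any part of reads from these partners was not tested.

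The level of a gene is the mean over cells of its UMIs per 10000 UMIs of the cell, and types and subtypes were compared where each library had at least 50 cells. Cells held 801 to 109676 UMIs. The 5 types that reached 50 cells were epithelial (1316 CIN_high and 1725 CIN_low cells), endothelial (602 and 247), pericyte (83 and 58), myeloid (2930 and 5348), and T and NK cells (234 and 414). Fibroblasts numbered 966 among CIN_high and 21 among CIN_low cells, and B cells 40 and 93. A further 18 CIN_high and 2 CIN_low cells were annotated as unknown. Every type named for a kind of cell carried its own markers, none of them at 0. A total of 11 barcodes occurred in both libraries, and leaving those cells out moved no member across the threshold of 1.5-fold. Median mitochondrial shares were 12.0% and 10.3% in epithelium and 4.93% and 3.31% in myeloid cells of the CIN_high and CIN_low libraries.

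Of the 5 compared types, pericytes held the highest levels of Fos, Fosb, Jun, Egr1 and Ier2 in each library. The cells annotated as unknown, too few to compare, also had high levels, with Fos at 53.8 and 104.5 and Egr1 at 37.8 and 42.2 in the CIN_high and CIN_low libraries. Fos, the AP-1 partner of Jun, had a level of 56.7 in the 966 fibroblasts of the CIN_high library, with 15.9 in the 21 fibroblasts of the CIN_low library. It stood at 43.1 in CIN_high and 34.8 in CIN_low pericytes, and at 25.1 and 22.0 in endothelial cells. Epithelial cells (6.29 in CIN_high and 7.79 in CIN_low) and myeloid cells (6.65 and 8.54) overlapped in their ranges over the 2 libraries. T and NK cells were lowest of the 5 compared types, at 1.14 and 2.22. All other neighbours in this order lay apart in both libraries.

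**Figure D1:**
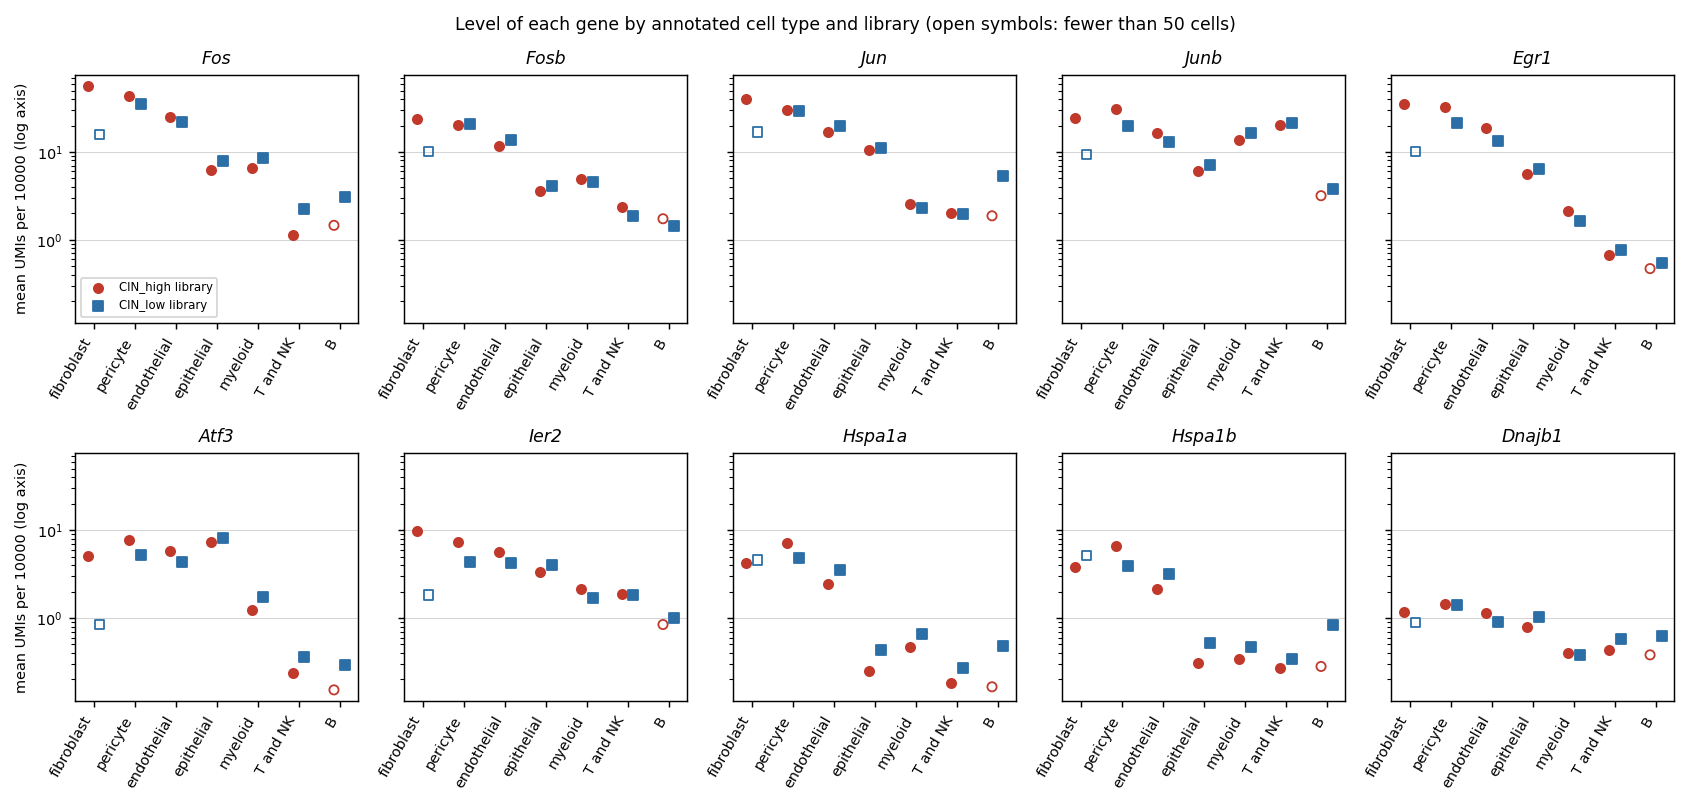
Level of each of the 10 genes, as mean UMIs per 10000 on a log axis, by annotated cell type, with CIN_high (circles) left of CIN_low (squares) and open symbols for fewer than 50 cells. Of the types with 50 cells in each library, pericytes are highest for Fos, Fosb, Jun and Egr1 and T and NK cells lowest, whereas Junb stays high in T and NK cells (20.5 and 21.2).

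Egr1, a zinc finger factor induced through SRF, was also highest in pericytes among the compared types. Its level was 35.0 in CIN_high and 10.1 in the 21 CIN_low fibroblasts, 32.9 in CIN_high and 21.1 in CIN_low pericytes, and 18.5 and 13.4 in endothelial cells. Epithelial cells had 5.60 and 6.41, myeloid cells 2.11 and 1.65, and T and NK cells 0.68 and 0.77. The 5 compared types kept this order in both libraries without overlap. Jun, the founding member of its family, was likewise highest in pericytes and then endothelial cells, at 29.7 and 29.4 in pericytes and 17.0 and 19.6 in endothelial cells. Epithelial cells came next at 10.5 and 11.1, and myeloid cells (2.52 and 2.33) and T and NK cells (1.99 and 1.98) were the lowest of the 5. Fosb, a close relative of Fos, ran from 20.5 and 20.6 in pericytes to 2.39 and 1.86 in T and NK cells.

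Junb, a Jun relative with its own roles in lymphocytes and granulocytes, departed from this order. T and NK cells had a level of 20.5 in CIN_high and 21.2 in CIN_low cells, and these values lay between the 2 pericyte values of 30.5 and 19.5. Myeloid cells (13.6 and 16.4) overlapped with endothelial cells (16.6 and 13.1), and epithelial cells were lowest of the compared types at 6.01 and 7.10. Atf3, a stress-induced factor of the CREB family, also had an order of its own. Its epithelial levels of 7.33 and 8.13 overlapped with those of pericytes (7.85 and 5.28), which overlapped with those of endothelial cells (5.74 and 4.33). Of the compared types, Atf3 was lowest in T and NK cells, at 0.24 and 0.36, and B cells had 0.15 and 0.29. Ier2, which encodes a small nuclear protein, ran from 7.31 and 4.395 in pericytes to 1.88 and 1.83 in T and NK cells, and B cells were below that at 0.84 and 1.01.

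The inducible HSP70 genes were highest in pericytes and then endothelial cells among the compared types. Hspa1a had a level of 7.10 in CIN_high and 4.81 in CIN_low pericytes, 2.45 and 3.55 in endothelial cells, and 4.29 in CIN_high and 4.58 in CIN_low fibroblasts. Myeloid cells had 0.47 and 0.66, epithelial cells 0.25 and 0.43, and T and NK cells 0.18 and 0.27. Hspa1b gave 6.55 and 3.90 in pericytes, 2.17 and 3.17 in endothelial cells and 0.31 and 0.52 in epithelium. Dnajb1, the HSP40 partner that delivers clients to HSP70, was flatter, from 1.44 and 1.41 in pericytes over 0.80 and 1.04 in epithelium to 0.40 and 0.38 in myeloid cells.

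Over the 22 points with at least 50 cells, where a point is 1 cell type or epithelial subtype in 1 library, likeness was measured by Pearson's r of log2(level + 0.1). Among genes outside the list, Ctdspl (r = 0.911), Myadm (0.894), Myo1c (0.891), Myof (0.880) and Ppp1r2 (0.878) were most like Fos. Within the list, r with Fos was 0.908 for Fosb, 0.885 for Egr1 and 0.386 for Junb. Among the genes most like Hspa1a were Lix1l (0.931), Chst1 (0.923), Tspan4 (0.920) and Procr (0.920), beside Hspa1b at 0.973. Points of 1 library share its capture and depth, and epithelial subtypes share much of their expression, so these values only describe the samples.

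The share of a cell's UMIs taken by the 7 immediate early genes had a median of 1.98% in CIN_high and 0.412% in the 21 CIN_low fibroblasts, and of 1.43% in CIN_high and 1.18% in CIN_low pericytes. It was 0.824% and 0.792% in endothelial cells, 0.335% and 0.416% in epithelial cells, 0.259% and 0.311% in myeloid cells, and 0.254% and 0.243% in T and NK cells. When each cell was thinned to 1000 UMIs, 81.2% of CIN_high fibroblasts and 5 of the 21 CIN_low fibroblasts had at least 10 of them in these genes. The same held for 68.3% of CIN_high and 58.6% of CIN_low pericytes, for 47.0% and 38.6% of endothelial cells, and for 8.07% and 11.3% of epithelial cells. In CIN_high fibroblasts and in pericytes of both libraries most cells thus reached this share, and in epithelium few did.

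**Figure D2:**
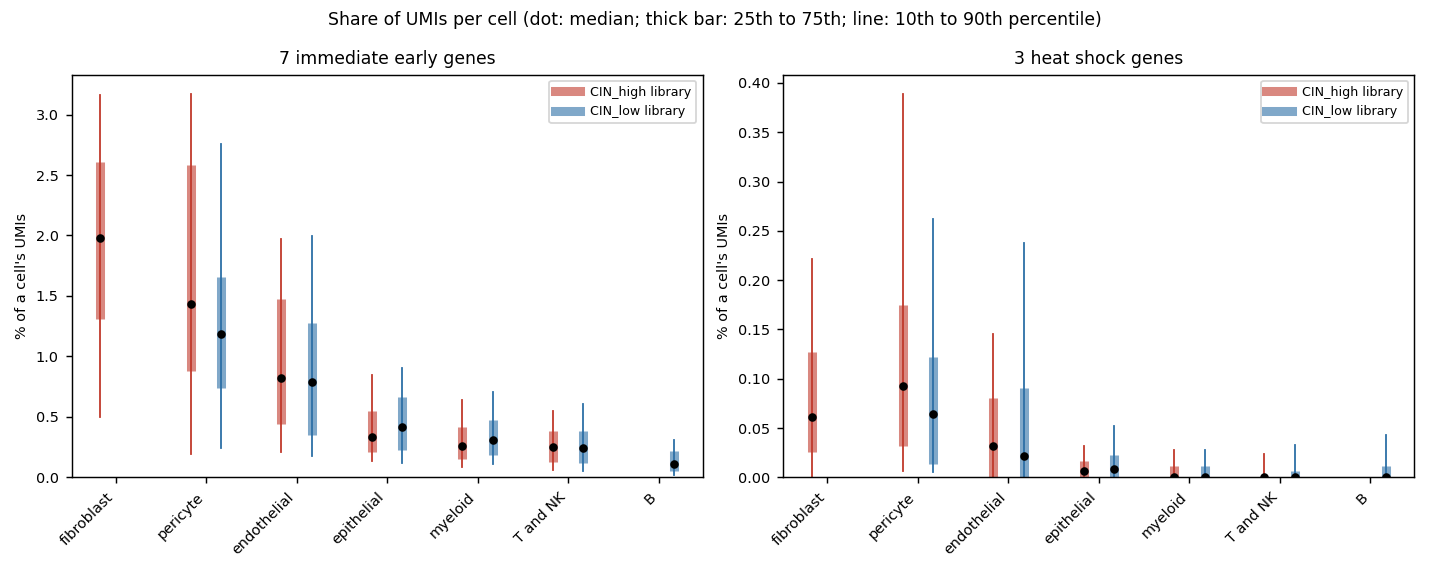
Share of each cell's UMIs, in percent, in the 7 immediate early genes (left) and the 3 heat shock genes (right) by cell type with at least 50 cells, CIN_high left of CIN_low in each pair. Dots are medians over cells, thick bars the 25th to 75th percentile and thin lines the 10th to 90th percentile; CIN_high fibroblasts and the pericytes of both libraries have medians above 1% for the immediate early genes.

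The HSP70 pair was spread unevenly over epithelial cells, as it was over myeloid and T and NK cells. In epithelium, the 5% of cells with the highest Hspa1a held 76.6% of its summed level in CIN_high and 67.8% in CIN_low cells, and the median cell had none. In pericytes the same share was 34.9% and 35.4%, with a median level of 2.56 and 2.63. For Hspa1b in epithelium it was 68.4% and 61.8%, and for Fos 23.3% and 22.3%. Dnajb1 was spread more evenly there than the pair, at 30.6% and 29.6%, with a median level of 0.44 and 0.58. After thinning, 88.5% of CIN_high and 83.7% of CIN_low epithelial cells had no UMI of the 3 heat shock genes, against 45.1% and 46.6% of pericytes. The share without one was 93.7% and 91.6% in T and NK cells and 92.7% and 90.9% in myeloid cells. In B cells it was 92.3% and 87.8%, at median depths of 3861 and 6203 UMIs before thinning.

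Cells high in 1 immediate early gene tended to be high in the others where levels were high. After thinning, the median Spearman rho over pairs of the 7 genes was 0.35 in CIN_high and 0.33 in CIN_low pericytes, 0.26 in CIN_high fibroblasts, and 0.25 and 0.22 in endothelial cells. It was 0.13 and 0.17 in epithelium and 0.07 and 0.05 in myeloid cells. Pairs of housekeeping genes gave medians between -0.03 and 0.04 in the same types. Fos and Egr1 had rho of 0.59 and 0.40 in pericytes and 0.24 and 0.25 in epithelium. Hspa1a and Hspa1b had 0.51 and 0.34 in pericytes and 0.22 and 0.27 in epithelium. The immediate early share was lower in cells with a higher mitochondrial share among endothelial cells (rho of -0.27 in CIN_high and -0.28 in CIN_low) and CIN_high fibroblasts (-0.26), and was nearly flat with it in epithelium (-0.06 and -0.06). Cells of 1 library share its preparation, counts are sparse, and these values are descriptions over cells.

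Over all cells pooled, 7 of the 10 genes were at least 1.5-fold higher in the CIN_high library and none was lower, where 17.1% of the 12573 measured genes were higher and 4.56% lower. Measured genes were those detected in 2% or more of the cells of either library. Egr1 had a pooled level of 10.04 in CIN_high and 3.17 in CIN_low cells, Jun 11.94 and 5.03, and Fos 16.56 and 8.64. Hspa1b had 1.14 and 0.60. Junb, at 14.43 and 14.35, differed least. As a ratio of summed UMIs, Ier2 was 1.41-fold higher and no longer past the threshold.

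These pooled differences moved with the share of fibroblasts, which made up 15.6% of CIN_high and 0.266% of CIN_low cells. Fibroblasts held 52.7% of all Fos UMIs in CIN_high and 0.501% in CIN_low cells, and 57.5% and 2.55% of Hspa1b UMIs. Without fibroblasts, 1 gene remained at least 1.5-fold higher, Egr1 at 1.72-fold. When the 5 types with enough cells were weighted alike in both libraries, no gene passed 1.5-fold. Egr1 was then 1.15 times its CIN_low level, Fos 0.856 times and Hspa1a 0.739 times. Fibroblasts themselves could not be compared, with 21 cells in the CIN_low library.

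**Figure D3:**
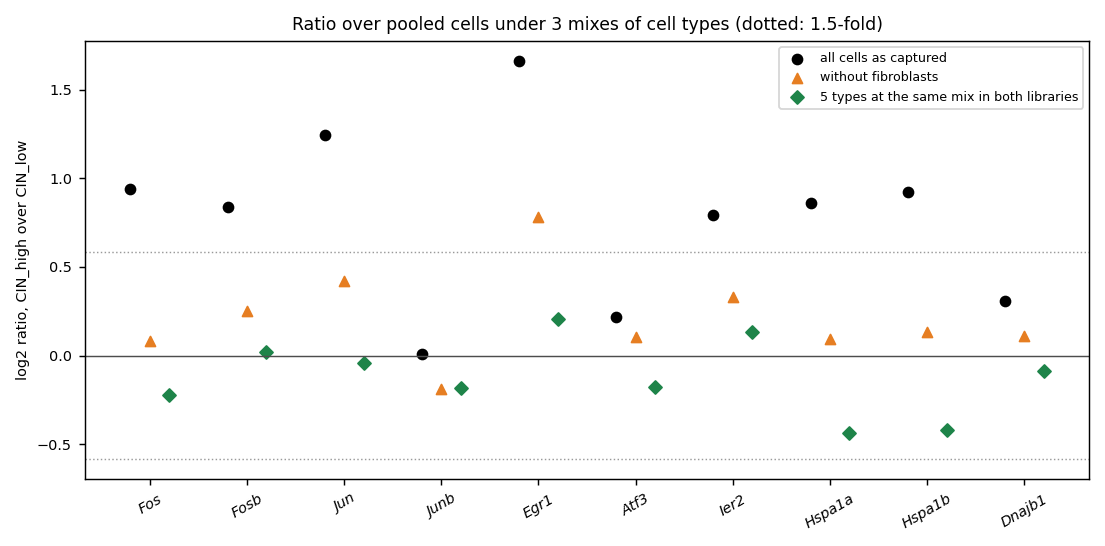
Log2 ratio of CIN_high over CIN_low for the pooled level of each gene, over all cells as captured (circles), without fibroblasts (triangles) and with 5 cell types at the same weights in both libraries (diamonds). Of the 10 genes, 7 lie above the upper dotted line of 1.5-fold as captured, 1 without fibroblasts and 0 at the same weights.

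In epithelial cells all 10 genes had a lower level in the CIN_high library, and the HSP70 pair passed 1.5-fold. Hspa1a had 0.25 in CIN_high and 0.43 in CIN_low cells, 1.73-fold lower, with a counting interval of the summed-UMI fold of 1.497 to 1.83. Hspa1b had 0.31 and 0.52, 1.70-fold lower (1.59 to 1.93). The 2 lower genes of 10 stand beside 7.7% of 13304 measured genes that were lower and 4.16% that were higher. The 7 immediate early genes were within the threshold, from 0.81 times for Fos (6.29 and 7.79) to 0.95 times for Jun (10.5 and 11.1), with a median log2 ratio of -0.19. The median over all measured genes was -0.10, so these genes lay close to it. Among cells with a mitochondrial share under 10%, Hspa1b was 0.698 times its CIN_low level and no longer past the threshold, while Hspa1a stayed past it. After thinning to 1000 UMIs per cell the Hspa1b ratio was 0.734, while Hspa1a, at 0.183 and 0.499, stayed past the threshold. By then 2.89% of CIN_high and 4.18% of CIN_low epithelial cells had a UMI of Hspa1b. For Hspa1a it was 1.75% and 4.00%, so the thinned values rest on few counts. Summed myeloid markers in epithelial cells were 5.14 in CIN_high and 10.3 in CIN_low, with none of the 6 at 0, and their part was not tested.

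Within epithelium the HSP70 ratio took different sizes in different subtypes, a contrast that was not tested. In p57+_cancer_cell cells the summed level of Hspa1a and Hspa1b was 0.17 in CIN_high and 0.90 in CIN_low cells, from 14 UMIs in 77 cells and 299 UMIs in 211 cells. In Proliferating cells it was 0.24 and 1.18, from 76 UMIs in 111 cells and 551 UMIs in 199 cells. The ratio of the levels was 0.192 in the first subtype and 0.206 in the other, with counting intervals of the summed-UMI ratio of 0.0881 to 0.278 and of 0.216 to 0.355. Stem_cell_1 cells, at 0.81 and 1.47, had a ratio of 0.552. Cancer_cell_1 cells, the largest subtype, had 0.45 and 0.71 and a ratio of 0.628.

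Within each of these 4 subtypes a few cells carried most of the Hspa1a signal. The 11 highest of 211 CIN_low p57+_cancer_cell cells held 68.0% of their Hspa1a level, and the 10 highest of 199 CIN_low Proliferating cells held 65.2%. The same share of cells held 57.4% in CIN_low Stem_cell_1 and 79.4% in CIN_low Cancer_cell_1 cells, where the differences were smaller. Median depth was 10078 and 11023 UMIs in the CIN_high and CIN_low p57+_cancer_cell cells, and 24594 and 24592 in Proliferating cells. Scrublet marked no p57+_cancer_cell as a doublet. Fibroblast markers, summed over 6 genes, were at 0.0932 and 0.0537 in these cells, with 3 of 6 at 0 in each library. Summed myeloid markers were lower in the CIN_high library, at 1.37 and 3.12, and their part was not tested.

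**Figure D4:**
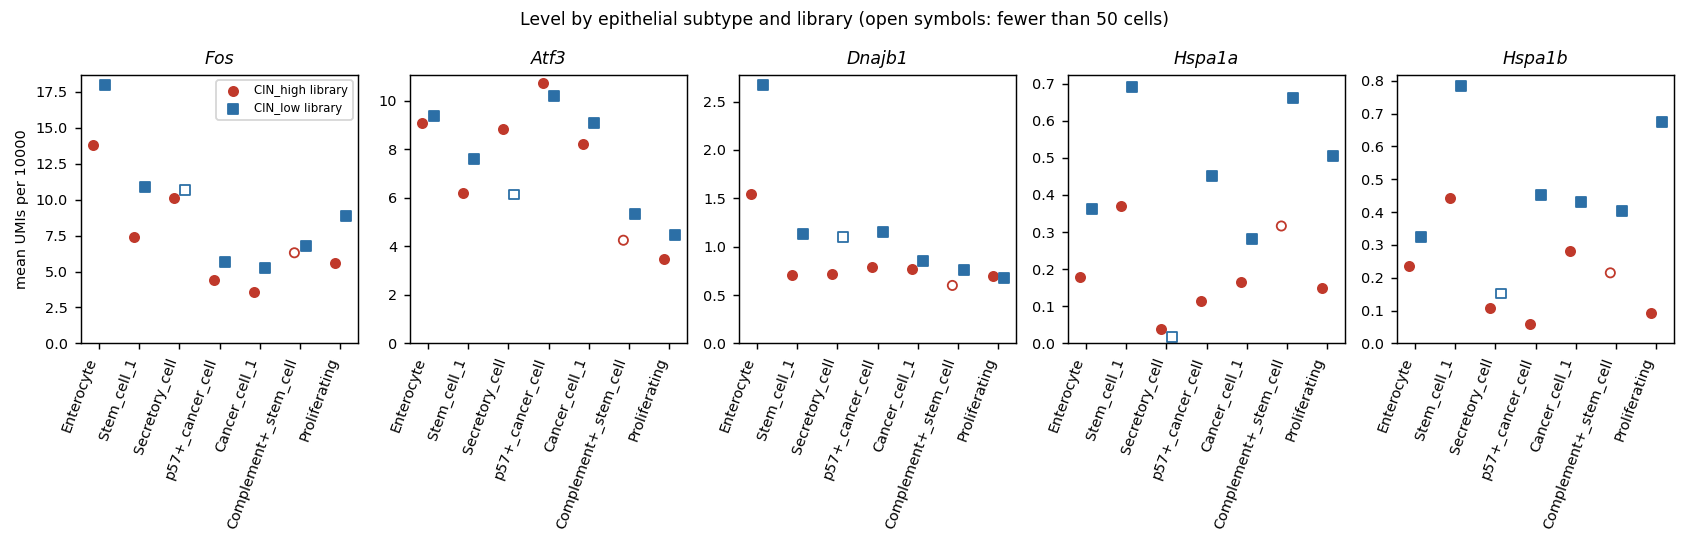
Level of 5 of the genes, as mean UMIs per 10000 on linear axes that start at 0, by epithelial subtype, CIN_high (circles) left of CIN_low (squares), open symbols for fewer than 50 cells. In the 5 subtypes with 50 cells in each library, Hspa1a and Hspa1b were lower in CIN_high, and Fos was highest in Enterocyte cells (13.8 and 17.98).

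The other members showed an order over the 5 compared subtypes that both libraries shared in part. Fos was highest in Enterocyte cells, at 13.8 in CIN_high and 17.98 in CIN_low, and lowest in Cancer_cell_1 cells, at 3.58 and 5.21, with the subtypes between them overlapping. Dnajb1 was also highest in Enterocyte cells, at 1.55 and 2.68. Atf3 was highest in p57+_cancer_cell cells, at 10.7 and 10.2, and lowest in Proliferating cells, at 3.46 and 4.49. Ier2 did not separate any neighbouring subtypes. Secretory_cell cells, with 54 CIN_high and 48 CIN_low cells too few to compare, had Fos at 10.1 and 10.7 and rested on 4 and 1 UMIs for Hspa1a.

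Counted by subtype, no member was at least 1.5-fold higher in the CIN_high library. In Cancer_cell_1 cells 2 members were lower, where 8.48% of all measured genes were lower and 5.98% higher. In Stem_cell_1 cells 3 were lower (Hspa1a, Hspa1b and Dnajb1), against 13.1% of genes lower and 8.73% higher, and in p57+_cancer_cell cells 2, against 16% lower and 17.4% higher. In Proliferating cells 3 were lower (the HSP70 pair and Fos at 5.60 and 8.85), against 13.8% lower and 11.1% higher. In Enterocyte cells 4 were lower (Fosb at 3.92 and 7.61, Junb, Hspa1a and Dnajb1), against 22.9% lower and 17.4% higher. The Enterocyte Hspa1a call rested on 29 and 53 UMIs. Its counting interval of the summed-UMI fold, CIN_low over CIN_high, was 0.913 to 2.38 and included 1. With a fixed mix of the 7 subtypes that had at least 20 cells in each library, epithelial calls were the same as for all epithelial cells.

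In pericytes 9 of the 10 genes had a higher level in the CIN_high library, where the median log2 ratio over all measured genes was 0.03. Junb had a level of 30.5 in CIN_high and 19.5 in CIN_low cells (1.56-fold higher), Egr1 32.9 and 21.1 (1.56-fold), Ier2 7.31 and 4.395 (1.66-fold) and Hspa1b 6.55 and 3.90 (1.68-fold). Atf3 and Hspa1a were just under the threshold, at 1.49-fold and 1.48-fold. Fosb (20.5 and 20.6), Jun (29.7 and 29.4) and Dnajb1 (1.44 and 1.41) were level. So 4 of 10 members were higher, in a type where 25.8% of 12404 measured genes were higher and 23.3% lower. The Junb call did not hold with summed UMIs (1.32-fold) or under a mitochondrial share of 10% (1.44-fold). Nor did the Hspa1b call after thinning (1.44-fold). Other settings added calls: with summed UMIs, Atf3 (1.69-fold) and Hspa1a (1.70-fold) passed the threshold. After thinning, Hspa1a had levels of 6.59 in CIN_high and 4.31 in CIN_low pericytes, and Ier2 8.41 and 3.62. Pericytes numbered 83 and 58 and had median depths of 5345 and 8835.5 UMIs. Their summed fibroblast markers were lower in the CIN_high library, 39.7 and 69.6, with none at 0. Their part in the result was not tested.

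**Figure D5:**
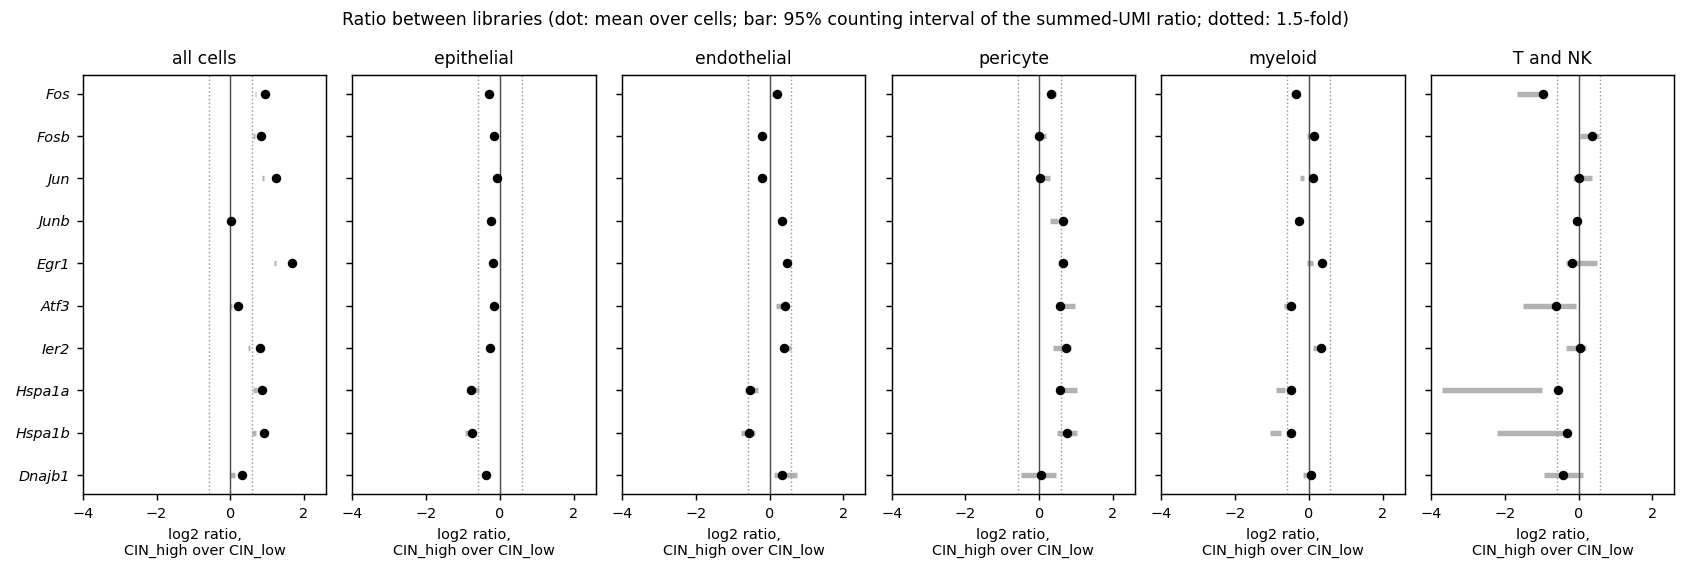
Log2 ratio of CIN_high over CIN_low for each gene over all cells and in 5 cell types. Dots are ratios of mean levels over cells, grey bars 95% counting intervals of the ratio of summed UMIs, which can miss the dot because summed UMIs weight deep cells more, and dotted lines 1.5-fold; all dots are left of 0 in epithelium, and 9 of 10 are right of 0 in pericytes.

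Endothelial cells had no member past 1.5-fold, where 32.4% of 11114 genes passed in either direction. Egr1 (18.5 and 13.4), Atf3 (5.74 and 4.33), Ier2 (5.61 and 4.25) and Junb (16.6 and 13.1) were 1.26 to 1.38 times their CIN_low levels. Dnajb1 was 1.27 times and Fos 1.14 times its CIN_low level. Hspa1a and Hspa1b lay on the other side of 1, at 0.689 and 0.684 times theirs, as did Fosb at 0.862 and Jun at 0.867. Summed myeloid markers in endothelial cells were 6.53 in CIN_high and 25.1 in CIN_low cells, with none of the 6 at 0, and Scrublet marked 3.49% and 8.10% of the cells. Without the marked cells Hspa1b was 0.654 times its CIN_low level, past the threshold. The part of the myeloid markers was not tested.

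Myeloid cells also had no member past the threshold, against 11.1% of 9772 genes in either direction. Fos had 6.65 and 8.54, and Atf3 1.248 and 1.75. The median log2 ratio over all measured genes was 0.22 in this type. Relative to it, Atf3, Hspa1a and Hspa1b were 0.612, 0.615 and 0.618 times their CIN_low levels. The annotated type mixed cells with neutrophil genes and cells with macrophage genes in different proportions. Cells with at least 3 UMIs of 6 neutrophil genes and at least 3 times those of 6 macrophage genes made up 28.0% of CIN_high and 45.8% of CIN_low myeloid cells. The reverse rule took 44.5% and 34.8%. With 5 in place of 3, the neutrophil-gene range lost 95 and 252 cells and the macrophage-gene range 85 and 127. These are ranges cut from counts and not cell types.

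In the macrophage-gene range 3 members were lower, where 3.57% of measured genes were. They were Hspa1b (0.22 in CIN_high and 0.56 in CIN_low, from 174 and 730 UMIs), Hspa1a (0.43 and 0.88) and Atf3 (1.58 and 2.62). In the neutrophil-gene range the summed HSP70 level was 0.46 and 0.49, a ratio of 0.946 with a counting interval of 0.882 to 1.19. Fos was lower there, at 3.71 and 6.19 (5.97% of genes lower), and Ier2 higher, at 3.47 and 2.05 (16.1% higher). Among the remaining myeloid cells Egr1 was higher, at 3.05 and 1.13 (11.3% of genes higher), and Hspa1a was 1.51-fold lower (5.47% lower). Summed fibroblast markers in these remaining cells were 3.67 and 0.0677, with 0 and 1 of the 6 at 0, and their part in the Egr1 value was not tested.

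In T and NK cells 2 members were lower and none higher, where 16.8% of 9909 genes were lower and 13.4% higher. Fos had a level of 1.14 in CIN_high and 2.22 in CIN_low cells, from 105 and 520 UMIs, 1.96-fold lower with a counting interval of the summed-UMI fold of 2.08 to 3.20. Atf3 had 0.24 and 0.36, from 23 and 75 UMIs, and was 0.850 times its CIN_low level after thinning. Junb, by contrast, was level at 20.5 and 21.2, with 2045 and 4155 UMIs. Hspa1a rested on 6 and 53 UMIs before thinning, with a level ratio of 0.676. After thinning the ratio was 0.152. By then 0.448% of 223 CIN_high and 2.46% of 406 CIN_low cells had a UMI of Hspa1a, so this ratio is unreliable. Summed myeloid markers in these cells were 11.01 and 25.4, with none at 0, and their part in the Fos value was not tested.

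Related genes were listed by role and counted by the same rule. Of 30 other immediate early genes in epithelium, 4 were lower (Gadd45g, 0.25 in CIN_high and 0.48 in CIN_low; Egr2; Ccn1; Egr3) and none was higher, beside the 7.7% and 4.16% of all measured genes, with a median log2 ratio of -0.21 against -0.10 for all measured genes. Btg2 (5.86 and 5.76), Klf6 (5.46 and 5.52) and Dusp1 (1.30 and 1.46), a phosphatase that shuts off MAP kinases, stayed within the threshold. In pericytes 9 of 30 were higher and 3 lower, where 25.8% and 23.3% of all measured genes were, so the share that was higher lay near that of all genes. The median was 0.24 against 0.03. Among them Btg2 had 14.2 and 6.73, Klf4 4.17 and 1.86, Nr4a3 1.94 and 0.88, Egr3 0.73 and 0.30, while Ier3 was lower at 4.69 and 8.85. In T and NK cells 3 of 27 measured genes were higher and 8 lower, where 13.4% and 16.8% of all genes were. Ier3 was among the lower ones, at 0.54 and 1.59.

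Of 25 other heat shock genes in epithelium, 2 were lower and none higher, where 7.7% and 4.16% of all measured genes were. These were the small heat shock protein genes Hspb1 (1.11 in CIN_high and 1.73 in CIN_low) and Cryab (0.065 and 0.16). Hspa8, the constitutive relative of the HSP70 pair, was level at 16.4 and 16.0, and Hsp90aa1 had 5.89 and 7.46. In pericytes 5 of 25 were higher and 1 lower, and both shares lay below the 25.8% and 23.3% of all measured genes. Hsp90aa1, the stress-inducible HSP90 gene, had 7.56 and 4.61 there, and Hspa8 had 15.8 and 18.1. Of 20 housekeeping genes, none passed 1.5-fold in epithelium and 1 did in pericytes.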

How the data were processed

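Per the submitters' processing notes, Cell Ranger 2.1.1, Seurat and the mm10 build were used for these droplet single-cell RNA libraries. The sources used here give no filters, and do not say whether doublets or ambient RNA were removed. The authors deposited 1 matrix on the natural log scale with a CIN class, a cell type and an epithelial subtype per cell. The exponential minus 1 of the deposited values summed to 10000 in every cell. In units of each cell's lowest positive entry, 100% of entries were whole within 0.01, and these whole numbers were taken as UMIs. Counts had been assumed when the design was written, so the UMIs recovered from the log values were used instead.

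Levels are averages of UMIs per 10000 over the cells of a group. Ratios of levels were called at 1.5-fold across all genes detected in 2% or more of the cells of either library. Intervals at 95% are exact (conditional binomial for ratios of summed UMIs). A floor of 3 UMIs replaced 0 UMIs. For Spearman correlations over cells, and elsewhere where stated, each cell was thinned to 1000 UMIs, which left out 97 CIN_high and 110 CIN_low cells. Medians and percentiles of the share of a cell's UMIs were taken without thinning, over all cells of a group. Doublet calling (Scrublet, Scanpy 1.11.5, 6% expected) marked 2.28% and 3.49% of cells as doublets, which stayed in the main values. Related genes past the threshold were named up to 4 each way by size of ratio, with at least 30 UMIs in all, and unchanged relatives were named after their values were seen. The members and lists were chosen with earlier results of these data known. The genes most like Fos and Hspa1a were the first 5 by Pearson's r, of which 1 is not reported here. Promoter windows came from RefSeq on GRCm38.p6 and gene positions from GENCODE on mm10. Alternatives covered scaling, depth, cells counted, the mix of types and subtypes, the fold and the low-value filter. Functions were tested on simulated data. Python 3.11.15, numpy 2.4.6, pandas 2.3.3, SciPy 1.17.1 and matplotlib 3.10.9 were used.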

Additional observations from a re-analysis of the deposited data

Results flagged for a closer look

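Hspa1b stood out because its 2 libraries differed in opposite directions in 2 cell types, past 1.5-fold in each. The log2 ratio of its level, CIN_high over CIN_low, was 0.75 in pericytes, from 260 UMIs in 83 CIN_high cells and 174 UMIs in 58 CIN_low cells. It was -0.76 in epithelial cells, from 581 UMIs in 1316 CIN_high cells and 1509 UMIs in 1725 CIN_low cells. With 1 library per class the difference between the types was not tested. After thinning, the pericyte ratio was 1.44 and the epithelial ratio 0.734, both inside the threshold with the directions kept. By then 2.89% of CIN_high and 4.18% of CIN_low epithelial cells had a UMI of Hspa1b, so few counts were left.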

How the results depend on the processing

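No paired analysis was possible because each class has 1 library. The pooled ratios depended on the mix of types: with 5 types at the same weights, those of Fos (0.856), Jun (0.972), Junb (0.882), Atf3 (0.883), Hspa1a (0.739), Hspa1b (0.747) and Dnajb1 (0.941) turned to below 1, and the count of members higher in the CIN_high library fell to 0 from 7, with 1 left without fibroblasts. Both settings, and those without the top 1% of cells and without shared barcodes, were chosen after seeing the data. A fold of 2 left 2 members higher over all cells (9.57% of all genes), 0 in pericytes (15.9%), and 0 lower in epithelium (2.37%) and in T and NK cells (8.71%). A looser threshold, 0.32 on the log2 scale, gave 5 higher and 2 lower in endothelial cells (24.3% and 31.6% of all genes). It gave 1 higher and 4 lower in both myeloid cells (31.7% and 6.9%) and T and NK cells (23.9% and 28.1%). In epithelium the count of lower members was 1 with a mitochondrial share under 10% and 1 after thinning. In endothelial cells it was 1 with summed UMIs, without doublets and with a mitochondrial share under 10%. In myeloid cells it was 3 with summed UMIs and relative to the median over all genes, and 2 with a mitochondrial share under 10% and after thinning. In T and NK cells it was 4 with summed UMIs, with a mitochondrial share under 10% and without the top 1% of cells, and 1 without doublets and relative to the median. The causes were not tested. Within the 5 types no call changed direction under these settings. Few cells limit the pericyte values (83 and 58 cells), and few counts those of Hspa1a in T and NK cells (6 and 53 UMIs).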

Other observations

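Genes of the endoplasmic reticulum stress response, which refold proteins inside the secretory pathway and are induced by a route separate from HSF1, were mostly lower in the pericytes of the CIN_high library. Of 18 measured genes of this list, 11 were at least 1.5-fold lower in the CIN_high library and 1 was higher, with a median log2 ratio of -1.01, where the median over all measured genes was 0.03 and 23.3% of genes were lower. Hspa5, the HSP70 of the endoplasmic reticulum, had a level of 5.98 in CIN_high and 27.4 in CIN_low pericytes. Hsp90b1 had 4.73 and 13.4, and Calr, a calcium-binding chaperone, 3.16 and 7.50. In epithelium 1 of 20 genes of the list was lower, Sdf2l1 at 0.33 and 0.52, with a median of -0.14. Pericytes numbered 83 (CIN_high) and 58 (CIN_low), and with 1 library each no test was possible.

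The 25 Igfbp+_cell cells, all of the CIN_high library, had the highest levels of Fos (19.05) and Hspa1a (1.998) of any epithelial subtype. Their fibroblast markers summed to 25.0, with none of the 6 at 0, and Scrublet marked 13 of the 25. The part of these markers in the levels was not tested.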
